A study of Mus musculus with 10 samples.

Results

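The H2 genes are the histocompatibility genes of the mouse, named for the H2 complex that holds nearly all of them. They were taken as every gene name in the count tables that starts with H2-, together with the partner genes B2m, Cd74, Ciita and Nlrc5, which gave 47 of 24391 gene names. By symbol they comprised 3 classical class I genes (H2-K1, H2-D1 and H2-L), 27 nonclassical class I genes of the Q, T and M regions, 5 class II genes, 6 class II loading genes (H2-DMa, H2-DMb1, H2-DMb2, H2-Oa, H2-Ob and Cd74), the light chain gene B2m, the 2 transactivator genes Ciita and Nlrc5, and 3 other genes of H2 name. In mm9, 43 of the 47 lie on chromosome 17 between 34111604 and 37620474, and Ciita, Cd74, B2m and Nlrc5 lie on chromosomes 16, 18, 2 and 8.

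Class I molecules are made of a heavy chain and B2m, and they show peptides from inside the cell to CD8+ T cells and natural killer cells. Class II molecules are pairs of an alpha and a beta chain that show peptides from ingested protein to CD4+ T cells, with Cd74 (the invariant chain) guarding the groove until H2-DM exchanges its remnant for a peptide and H2-O restrains that exchange. In the brain, neurons and glia carry little of either class at rest, interferons raise class I in most cell types, and class II is largely a property of macrophages, dendritic cells and activated microglia.

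RNA was sequenced from bilateral whole hippocampus of 10 male mice, with 1 library per mouse. Subarachnoid hemorrhage (SAH) was induced in 4 mice by unilateral filament perforation of the circle of Willis, 3 Sham mice had the same surgery with the filament withdrawn at the resistance point, and 3 Naive mice are the unoperated group. All were C56BL/6J, as the methods of the study spell the strain, aged 10 to 14 weeks, without drug treatment other than the anesthesia of the operated mice, and collected at day 4 for the operated groups. No allele or transgene is named for any group, SAH mice had been kept in the study only where cortical blood flow fell far enough at perforation, and Sham mice share the anesthesia, the neck surgery and the artery ligation with SAH mice. Sham and Naive mice were pooled as 6 control mice for the main comparison, and the separate comparisons follow it. Libraries held 19743388 to 27254655 counts. The 6 hippocampal neuron markers (Prox1, Neurod6, Slc17a7, Wfs1, Rbfox3 and Snap25) summed to 4690 to 4880 CPM in SAH mice and 4600 to 4870 CPM in control mice, where CPM is counts scaled to the usual common library size after TMM normalization.

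The promoters of 8 members are shown because their genes either rose together in the comparison below (H2-K1, H2-D1, H2-Q4, H2-T23, B2m, H2-Aa and H2-DMb1) or did not pass beside a partner that did (H2-DMa). H2-Eb1 also rose and has an entry, but its promoter is not printed. Each is the 180 bases before the most upstream start of the gene in RefSeq (GRCm38.p6), 5′ to 3′ on the gene's strand. Of the 47 members 32 had an entry. Capitals mark a match, on either strand, to the Y box CCAAT, to an interferon response core (GAA or GAAA, then any 2 bases, then GAAA; these forms can overlap), to the NF-kB site of the class I enhancer (GGGGA, any base, TCCCC) or to the CRE core TGACG, which matches both strands where it reads TGACGTCA.
H2-K1: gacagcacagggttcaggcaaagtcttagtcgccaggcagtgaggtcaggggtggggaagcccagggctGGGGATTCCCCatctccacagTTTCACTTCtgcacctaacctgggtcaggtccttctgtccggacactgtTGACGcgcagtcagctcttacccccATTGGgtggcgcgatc
H2-D1: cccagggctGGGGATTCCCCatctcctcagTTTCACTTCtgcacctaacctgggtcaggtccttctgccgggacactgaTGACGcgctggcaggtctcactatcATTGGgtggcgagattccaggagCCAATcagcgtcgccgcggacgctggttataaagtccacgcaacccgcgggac
H2-Q4: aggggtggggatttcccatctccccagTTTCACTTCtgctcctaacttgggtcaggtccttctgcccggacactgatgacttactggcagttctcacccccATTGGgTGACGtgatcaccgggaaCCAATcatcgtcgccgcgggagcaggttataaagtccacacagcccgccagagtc
H2-T23: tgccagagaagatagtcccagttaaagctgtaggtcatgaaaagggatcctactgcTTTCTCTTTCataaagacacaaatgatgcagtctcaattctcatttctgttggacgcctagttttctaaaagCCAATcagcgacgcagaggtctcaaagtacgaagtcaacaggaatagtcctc
B2m: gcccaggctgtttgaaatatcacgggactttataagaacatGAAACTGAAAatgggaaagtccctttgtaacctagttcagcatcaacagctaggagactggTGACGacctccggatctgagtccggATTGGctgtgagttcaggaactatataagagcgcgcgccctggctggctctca
H2-Aa: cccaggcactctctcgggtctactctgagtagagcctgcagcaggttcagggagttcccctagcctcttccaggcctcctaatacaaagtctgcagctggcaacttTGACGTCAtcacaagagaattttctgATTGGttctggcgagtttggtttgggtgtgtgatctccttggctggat
H2-DMb1: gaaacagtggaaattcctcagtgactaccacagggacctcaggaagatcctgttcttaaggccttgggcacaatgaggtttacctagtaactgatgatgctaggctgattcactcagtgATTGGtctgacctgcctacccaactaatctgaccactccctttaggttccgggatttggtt
H2-DMa: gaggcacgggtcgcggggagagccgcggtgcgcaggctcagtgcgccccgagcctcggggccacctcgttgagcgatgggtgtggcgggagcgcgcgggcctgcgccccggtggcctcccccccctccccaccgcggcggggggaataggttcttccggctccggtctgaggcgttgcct

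Among the 32 members with a promoter entry, the interferon response core was found in 10, against 6.23% of all 27025 promoters of this length and 4.41% of the 11334 promoters of tested genes. The 10 were H2-K1, H2-D1, H2-Q4, H2-Q6, H2-Q7, H2-Q10, H2-T23, H2-M3, H2-M2 and B2m, all of them class I heavy chains or the light chain. The printed H2-Aa and H2-DMb1 promoters had no match to it, nor had that of H2-Eb1, which held 2 matches to the Y box alone. The NF-kB site stood in H2-K1, H2-D1 and H2-Q6, against 0.0407% of all promoters and 0.0618% of those of tested genes. The Y box, which class I and class II promoters are known to share, was found in 28 of the 32, against 28.3% of all promoters and 30.7% of those of tested genes, and the CRE core in 12, against 15.0% and 22.6%. The H2-DMa window, which lies before the most upstream start of that gene, held no match to any of the 4. Other starts were not searched, so a match before another start of H2-DMa is not covered. A match is a run of letters and not a measured binding site.

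How far each H2 gene could be counted differed between the classes, since a read pair that aligned to several places or fell on more than 1 gene name had been discarded. In the mm9 annotation H2-Q6 and H2-Q8 share 981 exon bases, H2-Q7 and H2-Q9 share 1521, and H2-T22 and H2-T9 share 1639, so that H2-Q6, H2-Q9 and H2-T9 kept 0 exon bases of their own, H2-Q7 kept 15, H2-Q8 kept 30 and H2-T22 kept 119. H2-D1 shares 1060 bases with H2-L, a gene that the C57BL/6 haplotype is known to lack, and kept 676 of 1736 exon bases, while H2-L kept 4. In all, 6 members had under 100 exon bases of their own. Their counts of 0 or close to it say nothing of their RNA. Sequence likeness could take a further share. Of the 50-base windows of each gene's exons, 92.1% were found once in mm9 for H2-K1, 79.0% for H2-D1, 67.2% for H2-Q4, 60.1% for H2-T23, 67.7% for H2-DMb1 and 43.3% for H2-DMb2, against 100% for H2-Aa, H2-Ab1, H2-Eb1, Cd74, H2-DMa and B2m. The values of H2-D1, H2-Q4, H2-T23, H2-T10, H2-K2 and H2-DMb1 therefore leave out read pairs that could not be told from those of a relative. The windows are single stretches, and a pair with 1 read in a unique stretch could still be counted, so they do not measure the share lost.

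**Figure D1:**
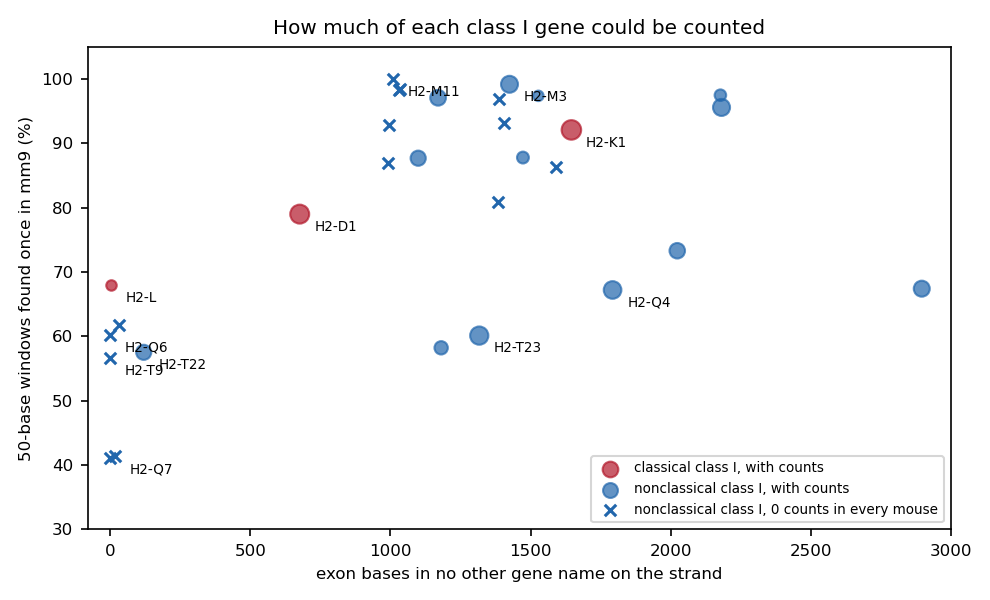
Exon bases that belong to no other gene name on the same strand (x axis) against the percent of 50-base exon windows found once in mm9 (y axis) for the 30 class I genes; dot area grows with the log of the summed count, and crosses have 0 counts in every mouse. The crosses fall into 5 genes with 30 or fewer bases of their own and 9 M-region genes with 990 or more.

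Of the 47 members, 16 had 0 counts in every mouse, 8 reached no more than 9 counts in any mouse, and 23 had at least 10 counts in some mouse. The 16 were 14 nonclassical class I genes and the class II genes H2-Eb2 and H2-Ea-ps. Of those 14, H2-Q6, H2-Q7, H2-Q8, H2-Q9 and H2-T9 were not countable as described. The other 9 were H2-M1, H2-M9, H2-M11 and the 6 H2-M10 genes, a group known for its expression in vomeronasal sensory neurons, and they were countable, with 80.9% (H2-M10.5) to 100% (H2-M11) of windows found once. A count of 0 allows up to 3 counts, which is 0.110 to 0.154 CPM depending on the mouse, and covers counting error only. H2-Ea-ps is the pseudogene of the E alpha chain, so H2-Eb1, which had counts in every mouse, lacked a counted alpha partner.

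After the filter on low counts, 20 members were tested between SAH and control mice and 27 were not (16 with 0 counts and 11 with few). Of the 20, 15 would also pass the filter on control mice alone, and H2-Oa, H2-Ob, H2-Ab1, H2-T10 and H2-M5 passed only with the SAH mice. In this comparison 13 of the 20 were higher in SAH mice and 0 were lower, where 3.13% of all 14993 genes tested were higher and 1.54% lower, 4.68% in all (edgeR quasi-likelihood test, adjusted p under 0.10). The 13 were H2-K1, H2-D1, H2-Q4, H2-T23, H2-T24, B2m, H2-Aa, H2-Ab1, H2-Eb1, Cd74, H2-DMb1, Nlrc5 and H2-K2. The median log2 fold change of the 20 was 0.97, beside −0.0024 over all genes tested. Of the 15 that pass the filter on control mice alone 12 were higher, with a median of 1.06. In 11 of the 20 all 4 SAH mice lay above all 6 control mice in CPM, where 2.82% of all genes tested did so. In tissue RNA, more cells of a type and more RNA per cell cannot be told apart.

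**Figure D2:**
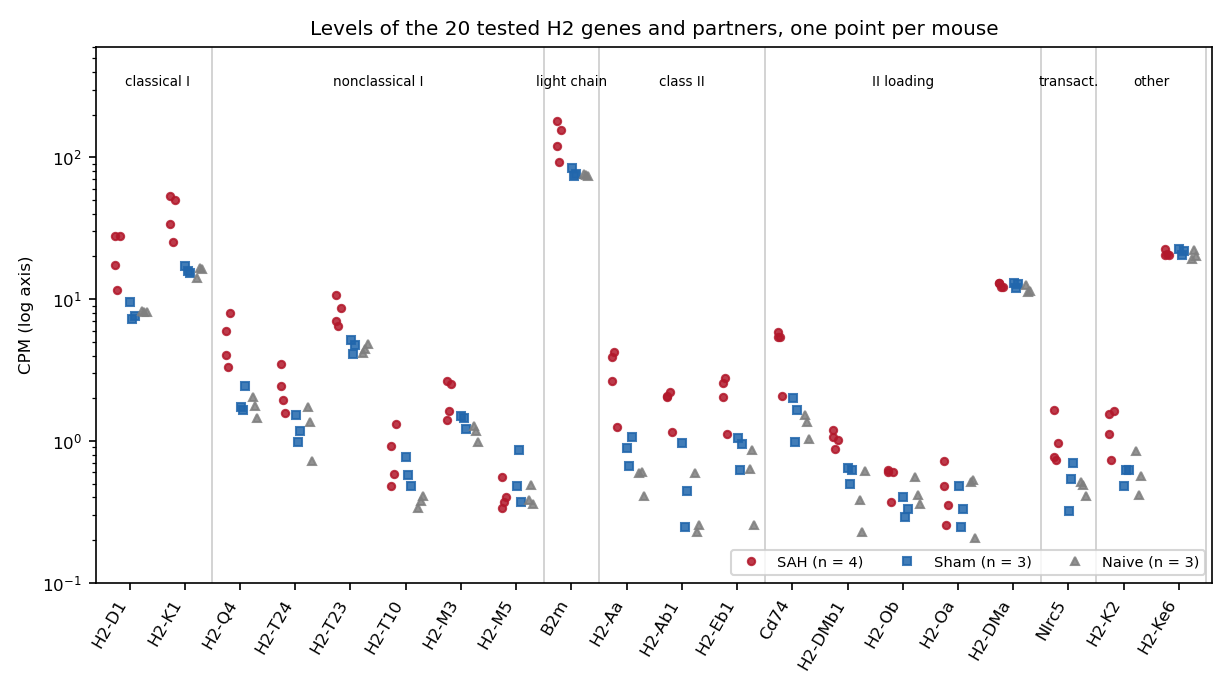
CPM (log axis) of the 20 tested members in each of the 4 SAH, 3 Sham and 3 Naive mice, ordered by class. The SAH points lie above both control groups for H2-K1, H2-D1, H2-Q4, H2-T23, B2m and the class II genes, with SAH mouse 3 just above the highest control mouse for H2-Aa, H2-Ab1 and H2-Eb1, and lie among them for H2-DMa, H2-M5 and H2-Ke6.

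The classical heavy chains H2-K1 and H2-D1, which present peptides to CD8+ T cells, both rose, with similar fold changes. H2-K1 (chromosome 17, 34132957 to 34137278) stood at 33.9, 25.3, 50.1 and 53.4 CPM in SAH mice 1 to 4, at 15.9, 15.4 and 17.2 CPM in Sham mice 5 to 7 and at 16.5, 16.3 and 14.1 CPM in Naive mice 8 to 10. All SAH mice were above all control mice, and the control mice lay close together. The log2 fold change was 1.35 (SE 0.16, edgeR adjusted p = 0.00121). H2-D1 (chromosome 17, 35400039 to 35404442) stood at 17.4, 11.6, 27.9 and 28.0 CPM in the SAH mice, 7.26, 7.61 and 9.61 CPM in the Sham mice and 8.05, 8.12 and 8.19 CPM in the Naive mice. Its groups did not overlap either, and its log2 fold change was 1.38 (SE 0.20, edgeR adjusted p = 0.00375). H2-D1 made up 33.9% ± 1.78 (SD, n = 4) of the summed H2-K1 and H2-D1 CPM in SAH mice and 33.8% ± 2.06 (SD, n = 6) in control mice. H2-L, with 4 bases of its own, was not tested.

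B2m (chromosome 2, 121973423 to 121978818), the light chain of every class I molecule described here, stood at 121, 93.0, 155 and 180 CPM in the SAH mice, against 74.2, 75.9 and 83.5 CPM in the Sham mice and 75.5, 74.2 and 76.8 CPM in the Naive mice. The lowest SAH mouse was above the highest control mouse, and the log2 fold change was 0.84 (SE 0.13, edgeR adjusted p = 0.00463). The fold of the means, SAH over control, was 1.79 for B2m beside 2.56 for H2-K1 and 2.61 for H2-D1. The ratio of B2m CPM to the summed CPM of H2-K1 and H2-D1 was 1.98 to 2.52 in SAH mice but 3.03 to 3.45 in control mice, with no overlap. Per kilobase of exon bases of its own, B2m had the highest mean level of all tested members. It stood at 160 CPM per kb in SAH and 89.4 CPM per kb in control mice, above H2-D1 at 31.4 and 12 CPM per kb and H2-K1 at 24.7 and 9.67 CPM per kb. H2-D1 was divided by 676 of its 1736 exon bases and H2-K1 by all 1646. The order of H2-D1 and H2-K1 depends on these lengths, since in CPM H2-K1 was the higher.

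Of the 27 nonclassical class I genes 6 were tested, and H2-Q4, H2-T23 and H2-T24 rose while 0 fell. H2-Q4, a Q-region heavy chain, stood at 4.06, 3.31, 7.98 and 5.99 CPM in the SAH mice, 1.65, 2.43 and 1.73 CPM in the Sham mice and 1.77, 1.44 and 2.04 CPM in the Naive mice. The groups did not overlap, and SAH mouse 3 was the highest. Its log2 fold change of 1.51 (SE 0.23, edgeR adjusted p = 0.00375) was the largest among the class I genes that passed. H2-T23, which encodes the Qa-1 heavy chain that presents class I leader peptides to the CD94/NKG2A receptor of natural killer cells, stood at 7.06, 6.51, 8.69 and 10.7 CPM in the SAH mice, against 4.13, 4.78 and 5.15 CPM in the Sham mice and 4.44, 4.83 and 4.16 CPM in the Naive mice. Its groups did not overlap (log2 fold change 0.85, SE 0.13, edgeR adjusted p = 0.00521).

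H2-T24 stood at 2.42, 1.95, 1.57 and 3.48 CPM in the SAH mice and between 0.72 and 1.74 CPM in the control mice. SAH mouse 3 lay within the control range, the log2 fold change was 0.90 (SE 0.25, edgeR adjusted p = 0.0782), and the call was lost in 6 of the 10 fits that left out 1 mouse. The log2 value was 0.65 (adjusted p = 0.238) when SAH mouse 4 was the mouse left out. H2-M3, which presents N-formylated peptides, stood at 1.40, 1.62, 2.53 and 2.64 CPM in the SAH mice and between 0.977 and 1.49 CPM in the control mice, and narrowly missed the threshold (log2 fold change 0.69, SE 0.20, edgeR adjusted p = 0.101). For H2-T10 the log2 fold change was 0.72 (95% interval 0.04 to 1.40), and for H2-M5 it was −0.23 (95% interval −0.90 to 0.44), neither past the threshold. Among the nonclassical genes too low for the test, H2-Q1 had 31, 23, 3 and 2 counts in the SAH mice, 11, 6 and 8 in the Sham mice and 7, 1 and 0 in the Naive mice, so its high counts came from SAH mice 1 and 2.

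The 3 class II chain genes that could be tested all rose, and H2-Aa and H2-Ab1 had the largest fold changes of the 20. H2-Aa (chromosome 17, 34419696 to 34424716), the alpha chain of the I-A molecule, stood at 2.66, 4.23, 1.26 and 3.92 CPM in SAH mice 1 to 4, at 0.66, 1.07 and 0.885 CPM in the Sham mice and at 0.602, 0.411 and 0.594 CPM in the Naive mice. The groups did not overlap, although SAH mouse 3 came close to Sham mouse 6. The log2 fold change was 2.09 (SE 0.31, edgeR adjusted p = 0.00375).

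H2-Ab1 (chromosome 17, 34400172 to 34406363), its beta chain partner, stood at 2.08, 2.21, 1.16 and 2.04 CPM in the SAH mice, 0.248, 0.441 and 0.965 CPM in the Sham mice and 0.226, 0.257 and 0.594 CPM in the Naive mice (log2 fold change 2.03, SE 0.34, edgeR adjusted p = 0.00629). H2-Eb1, the beta chain of I-E, stood at 2.56, 2.79, 1.11 and 2.04 CPM in the SAH mice, 0.619, 0.956 and 1.05 CPM in the Sham mice and 0.865, 0.257 and 0.636 CPM in the Naive mice (log2 fold change 1.52, SE 0.30, edgeR adjusted p = 0.0158). For both, SAH mouse 3 was the lowest SAH mouse and lay just above the highest control mouse. The class II chains stayed rare beside class I: their summed CPM was 14.2%, 25.0%, 4.53% and 9.82% of the classical class I sum in SAH mice 1 to 4, and 3.78% to 10.8% in control mice.

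Of the 5 class II loading genes tested, Cd74 and H2-DMb1 rose and 3 did not pass. Cd74 (chromosome 18, 60963503 to 60972306), the invariant chain, stood at 5.90, 5.44, 2.07 and 5.39 CPM in the SAH mice, 0.99, 1.65 and 2.01 CPM in the Sham mice and 1.35, 1.03 and 1.53 CPM in the Naive mice. SAH mouse 3 was level with Sham mouse 7 and the other SAH mice stood well above. The log2 fold change was 1.71 (SE 0.26, edgeR adjusted p = 0.0044). The ratio of Cd74 CPM to the summed CPM of H2-Aa, H2-Ab1 and H2-Eb1 was 0.586 to 0.808 in SAH mice against 0.649 to 1.11 in control mice, ranges that overlap.

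The 2 chains of H2-DM, the peptide exchange factor of class II, behaved differently. H2-DMb1 stood at 1.06, 0.882, 1.01 and 1.2 CPM in the SAH mice, 0.495, 0.62 and 0.643 CPM in the Sham mice and 0.226, 0.617 and 0.382 CPM in the Naive mice, with no overlap (log2 fold change 1.06, SE 0.26, edgeR adjusted p = 0.0481). It did not pass without SAH mouse 4 (adjusted p = 0.149) or without Naive mouse 10 (adjusted p = 0.105). H2-DMa stood at 13, 12.2, 12.1 and 12.9 CPM in the SAH mice, 11.9, 12.8 and 12.9 CPM in the Sham mice and 11.2, 11.5 and 12.6 CPM in the Naive mice. Its groups overlapped, and the 95% interval of its log2 fold change was −0.10 to 0.19. H2-DMa CPM divided by H2-DMb1 CPM was 10.8 to 13.9 in SAH mice but 18.6 to 49.5 in control mice. Per kilobase of own exon bases H2-DMa was at 7.33 CPM per kb in control mice, above H2-Aa at 0.658 and H2-DMb1 at 0.388 CPM per kb. H2-DMb1 shares much of its sequence with H2-DMb2, and read pairs that fitted both genes equally were left out of its level. The H2-O chains, which restrain H2-DM, had log2 fold changes of 0.22 (H2-Oa, 95% interval −0.54 to 0.98) and 0.47 (H2-Ob, 95% interval −0.10 to 1.04).

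**Figure D3:**
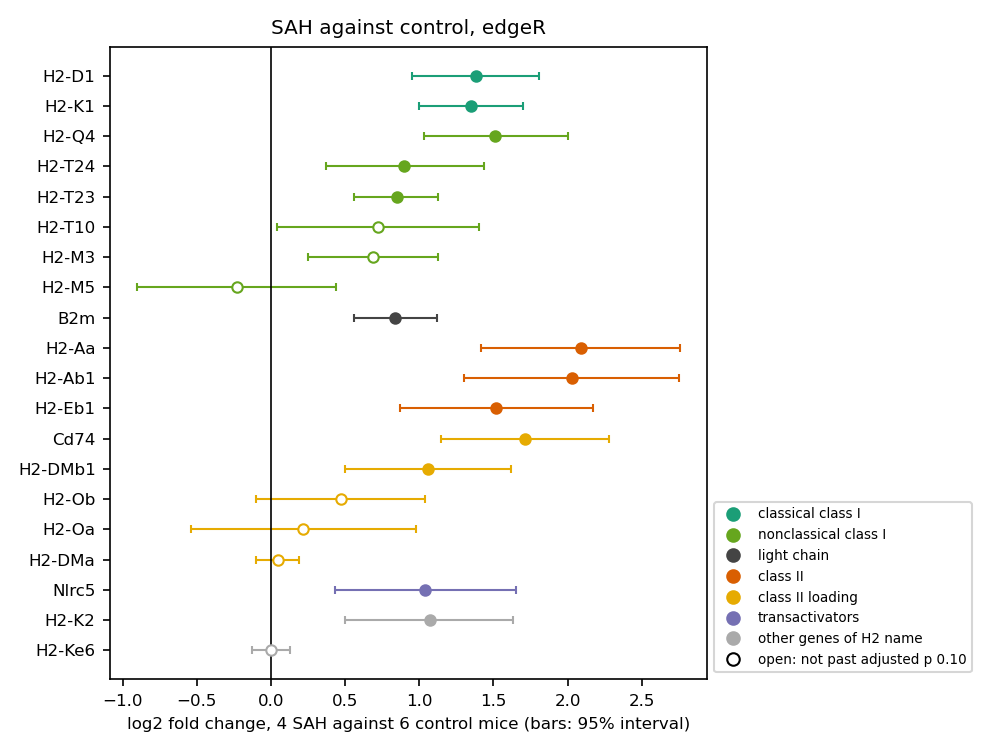
Log2 fold change of the 20 tested members between 4 SAH and 6 control mice (edgeR; bars are 95% intervals), colored by class, with open points for the 7 that did not pass an adjusted p of 0.10. H2-Aa at 2.09 and H2-Ab1 at 2.03 lie furthest right, followed by Cd74 at 1.71, and H2-DMa and H2-Ke6 sit at 0 with short bars.

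Of the transactivators, Nlrc5, the known activator of class I genes, stood at 0.773, 0.735, 0.96 and 1.64 CPM in the SAH mice, 0.536, 0.698 and 0.322 CPM in the Sham mice and 0.489, 0.411 and 0.509 CPM in the Naive mice. The groups did not overlap, SAH mouse 4 was the highest, and the log2 fold change of 1.04 (SE 0.28, edgeR adjusted p = 0.0718) dropped to 0.71 (adjusted p = 0.231) without that mouse. It also missed the threshold without Sham mouse 5 or 7 or any Naive mouse, at adjusted p = 0.116 to 0.148. Ciita, the master regulator of class II genes, had 3, 6, 0 and 7 counts in the SAH mice, 0, 3 and 3 in the Sham mice and 2, 0 and 1 in the Naive mice, too few for the test. With no filter on low counts its adjusted p was 0.391. Among the other genes of H2 name, the pseudogene H2-K2 rose (log2 fold change 1.07, SE 0.26, edgeR adjusted p = 0.0501), with 82.3% of its windows found once, and it did not pass without SAH mouse 3 (adjusted p = 0.117), SAH mouse 4 (adjusted p = 0.169) or Naive mouse 8 (adjusted p = 0.118). H2-Ke6, a hydroxysteroid dehydrogenase gene that lies in the complex and presents no antigen, stood at a mean of 21.1 CPM in both groups, with a 95% interval of the log2 fold change of −0.13 to 0.13.

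Set side by side, the classes differed in level and in the size of the difference. The median log2 fold change between SAH and control mice was 2.03 for class II chains (3 of 3 tested rose), 1.36 for classical class I (2 of 2), 0.78 for nonclassical class I (3 of 6) and 0.47 for class II loading genes (2 of 5). These medians include H2-Ab1, H2-T10, H2-M5, H2-Oa and H2-Ob, which passed the filter only with the SAH mice. Over the members that pass on control mice alone the medians were 1.80 for 2 class II chains, 1.36 for 2 classical and 0.88 for 4 nonclassical class I genes, and 1.06 for 3 class II loading genes. The summed classical class I level was 61.9 ± 21.5 CPM (SD, n = 4) in SAH mice and 24.1 ± 1.6 CPM (SD, n = 6) in control mice, a ratio of 2.57. Nonclassical class I summed to 20.6 ± 4.44 and 10.7 ± 0.872 CPM, a ratio of 1.92, and class II chains to 7.01 ± 2.45 and 1.89 ± 0.699 CPM, a ratio of 3.72. Class II loading genes summed to 19.5 ± 2.19 and 15.0 ± 1.21 CPM, a ratio of 1.30, most of it H2-DMa. The SD in CPM was larger among SAH mice than among control mice in all 4 classes, but for class II chains not in relation to the mean. Differences between classes were not tested.

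**Figure D4:**
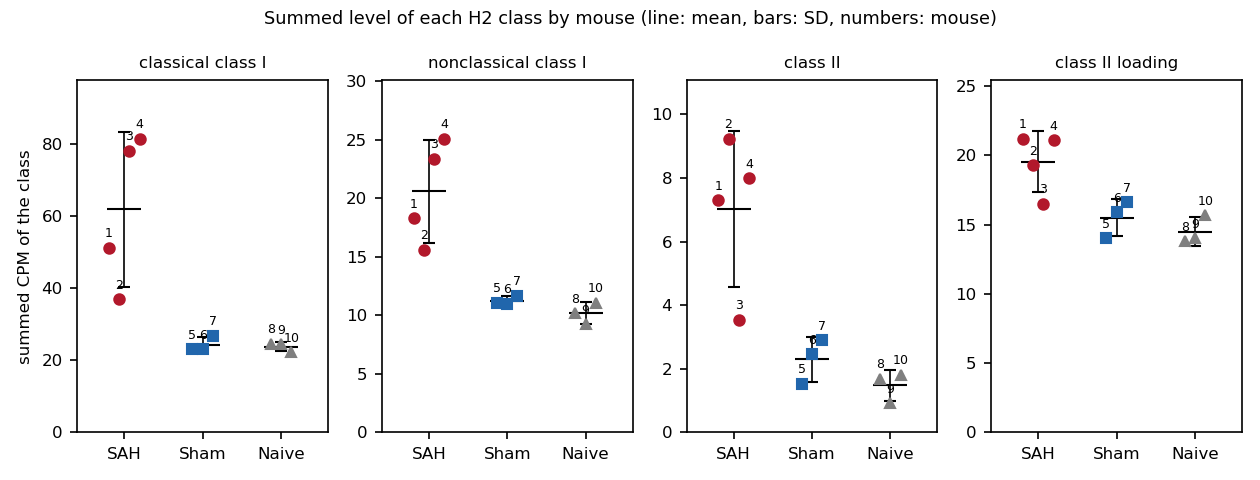
Summed CPM of each class in every mouse (numbers name the mouse; the line is the group mean and the bars the SD), each panel on its own axis from 0. SAH mice 3 and 4 are highest for classical and nonclassical class I, whereas SAH mouse 3 is the lowest SAH mouse for class II chains and class II loading genes.

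The SAH mice did not rank alike in class I and class II. Over the 5 class I genes that rose and B2m, SAH mouse 4 was the highest SAH mouse in 5 of 6 and SAH mouse 2 the lowest in 5 of 6, and the median fold over the control mean was 2.03, 1.49, 2.58 and 3.02 in SAH mice 1 to 4. Over the 5 class II and class II loading genes that rose, SAH mouse 2 was the highest in 3 of 5 and SAH mouse 3 the lowest in 4 of 5, and the median folds were 3.78, 3.83, 1.80 and 3.78. With 4 mice this is a description.

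**Figure D5:**
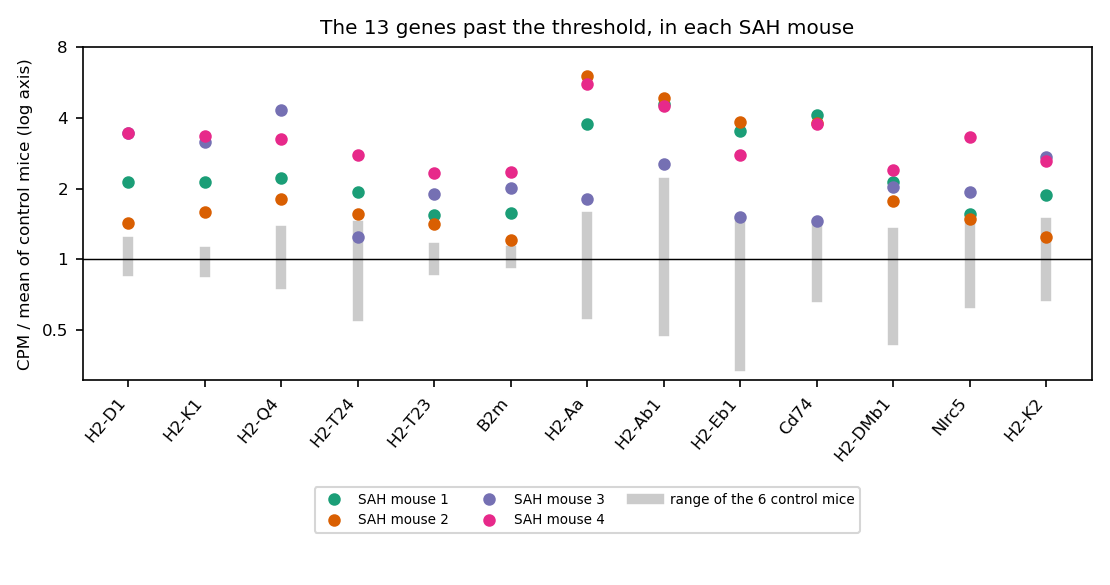
CPM of the 13 genes past the threshold in each SAH mouse, divided by the mean of the 6 control mice (log axis); grey bars span the control mice. SAH mouse 2 is low for H2-K1, H2-D1, H2-Q4, H2-T23 and B2m and high for H2-Aa, H2-Ab1 and H2-Eb1, and SAH mouse 3 is low for H2-Aa, H2-Ab1 and H2-Eb1 and high for H2-K1, H2-D1, H2-Q4, H2-T23 and B2m, but the lowest SAH mouse for H2-T24.

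Markers of other cell types differed between the mice as well. The 7 choroid plexus markers, led by Ttr, summed to 102, 215, 1220 and 861 CPM in SAH mice 1 to 4, to 211, 57.2 and 827 CPM in the Sham mice and to 44.2 to 67.5 CPM in the Naive mice, with 0 of 7 past the threshold between SAH and control mice. SAH mice 3 and 4, the highest in class I, and Sham mouse 7, the control mouse highest in B2m and H2-D1, were the 3 highest in this sum. With those 3 mice left out, a choice made after the values were seen, 10 members were higher of 22 tested, beside 1.70% of all genes. The log2 fold changes were then 0.91 for H2-K1 (edgeR adjusted p = 0.00016), 0.87 for H2-D1 (adjusted p = 0.00209), 0.96 for H2-Q4 (adjusted p = 0.0208) and 0.51 for B2m (adjusted p = 0.002). For the class II side they were 2.35 for H2-Aa (edgeR adjusted p = 0.000348), 2.58 for H2-Ab1 (adjusted p = 0.000354), 1.96 for H2-Eb1 (adjusted p = 0.00185) and 2.09 for Cd74 (adjusted p = 3.79e-05). H2-T24, Nlrc5, H2-K2 and H2-DMb1 no longer passed, and the other 2 of the 10 were H2-T23 (0.60, edgeR adjusted p = 0.0163) and H2-Q1. The low SAH mice of H2-Q1, 3 and 4, were among those left out, so its call follows from that choice. The same choice removed SAH mice 3 and 4, high in class I, and with SAH mouse 3 the SAH mouse lowest in class II chains. The smaller class I and larger class II fold changes cannot be told apart from it. The part of choroid plexus content was not tested.

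Of the 7 border-associated macrophage markers 5 rose (Mrc1, Cd163, F13a1, Pf4 and Ms4a7). The list summed to 24.2, 18.9, 21.4 and 21.6 CPM in SAH mice 1 to 4, to 10.5 to 12.3 CPM in Sham mice and to 6.84 to 7.87 CPM in Naive mice. The sum was lowest in SAH mouse 2, which had the highest class II chain sum, and highest in SAH mouse 1, which had the most Cd74. Of the 6 meningeal fibroblast markers 5 rose, and their sum was 167, 178, 93.7 and 139 CPM in SAH mice 1 to 4, lowest in SAH mouse 3, which had the least class II, and 87.3 to 120 CPM in control mice. Of the 7 microglia markers reported here (Cx3cr1, P2ry12, Tmem119, Csf1r, Aif1, Itgam and C1qa), Csf1r and C1qa rose, whereas Cx3cr1 and P2ry12 had log2 fold changes of −0.062 and −0.046 and did not pass, and the sum was 322 to 400 CPM in SAH mice, lowest in SAH mouse 2, and 294 to 338 CPM in control mice. Of the 6 endothelial markers 2 rose, with sums of 114 to 222 CPM in SAH mice and 98.6 to 141 CPM in control mice, and of the 5 astrocyte markers Gfap rose. Monocyte markers summed to 16.1 to 29.2 CPM in SAH mice and 12.6 to 19.6 CPM in control mice, with 0 of 1 tested past the threshold, a sum made up mostly of Ly6c1. Ccr2, the chemokine receptor of inflammatory monocytes, was too low for the test against pooled control mice. It had 32, 24, 2 and 17 counts in SAH mice 1 to 4, lowest in SAH mouse 3, and 1 to 6 counts in control mice. In a fit of SAH, Sham and Naive mice as 3 groups it was tested, entering only through its SAH counts. There its log2 fold change was 2.32 against Sham mice (edgeR adjusted p = 0.217) and 2.6 against Naive mice (adjusted p = 0.103). Neither passed the threshold. The Ly6c2 count was 2 to 5 in each SAH mouse, against 0 to 1 in each control mouse. The neutrophil sum did not exceed 1.21 CPM in any mouse. The part of these cells in the H2 results was not tested.

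Markers of dendritic cells and lymphocytes overlapped between the groups. The dendritic cell sum was 26.9 to 31.0 CPM in SAH mice and 26.2 to 29.4 CPM in control mice, with 0 of 4 tested past the threshold, the T cell sum was 1.62 to 2.44 and 1.51 to 2.47 CPM, and these were mostly Siglech and Flt3 for dendritic cells and Lck for T cells, and the NK cell sum did not exceed 0.161 CPM in any mouse. Low members were Itgax, at 7 to 21 counts in SAH mice and 2 to 18 counts per control mouse, Cd209a, at 2 to 4 and 0 to 3, Ccr7, at 0 to 6 and 0 to 1, and Cd2, at 0 to 4 counts in SAH mice and 0 in each control mouse. The B cell sum was 0.32 to 0.435 CPM in SAH mice and 0.206 to 0.594 CPM in control mice.

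The genes that feed and control the H2 molecules moved in part. Of 13 class I loading genes 6 rose and 0 fell: the peptide transporter subunits Tap1 (log2 fold change 0.56) and Tap2 (0.44), the loading factors Tapbp (0.33) and Pdia3 (0.22), and the immunoproteasome subunits Psmb8 (0.81) and Psmb9 (1.10). All of these were smaller than the change of H2-K1. Of 14 genes of the class II pathway 4 rose and 0 fell, namely the thiol reductase Ifi30 (0.84) and the lysosomal proteases Ctss (0.74), Ctsd (0.30) and Ctsb (0.13), whereas the class II promoter factors Rfx5, Rfxap, Rfxank, Nfya, Nfyb and Nfyc did not pass, with log2 fold changes from −0.11 to 0.046. Of 12 tested genes of the interferon gamma axis, Irf7 (2.10), Irf1 (0.57) and Irf8 (0.49) rose. Of 5 tested receptors and costimulatory genes 0 passed by edgeR, and Cd86 stood at 0.49 (adjusted p = 0.117). These counts are against pooled control mice. Against Sham mice 0 of the 13 class I loading, 0 of the 14 class II pathway and 1 of the 12 interferon gamma axis genes were higher, where 0.529% of all genes were. Against Naive mice 2 of each of these lists were higher, where 2.03% of all genes were.

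The comparison with Sham mice asks what the perforation adds to the surgery, and it rests on 3 Sham mice. In the fit of the 3 groups 7 of 22 tested members were higher in SAH than in Sham mice and 0 were lower, where 0.529% of all 15134 genes tested were higher. The 7 were H2-K1 (log2 fold change 1.33, edgeR adjusted p = 0.0315), H2-D1 (1.37, adjusted p = 0.0499), H2-Q4 (1.45, adjusted p = 0.0654), B2m (0.82, adjusted p = 0.0682), H2-Aa (1.80, adjusted p = 0.0682), H2-T23 (0.81, adjusted p = 0.0715) and Cd74 (1.6, adjusted p = 0.0726). H2-Ab1 (1.77, edgeR adjusted p = 0.105) and H2-Eb1 (1.29, adjusted p = 0.196) did not pass. All 4 SAH mice lay above all 3 Sham mice in CPM for 13 of the 22, where 5.03% of all genes tested did so. These calls depended on single mice: 0 members passed in edgeR when Sham mouse 5, 6 or 7 was left out, with 12 to 13 members at an unadjusted p under 0.05, 1 passed without SAH mouse 4, 2 passed without Naive mouse 8 or 9, and 1 without Naive mouse 10. Over all genes tested, 0.0653%, 0.0393% and 0.0983% were higher without Sham mouse 5, 6 and 7. The share was 0.12% without SAH mouse 4 and 0.295%, 0.313% and 0.248% without Naive mouse 8, 9 and 10, so calls dropped across the table. In a fit of SAH and Sham mice alone 0 of 21 passed, where 0.0797% of all genes did, with 13 at an unadjusted p under 0.05 and the lowest adjusted p at 0.144. DESeq2 on all 10 mice called 9, where 1.49% of all genes were higher. The log2 fold changes in the fit of SAH and Sham mice alone were 1.33 for H2-K1, 1.37 for H2-D1, 1.45 for H2-Q4 and 1.8 for H2-Aa, as in the fit of the 3 groups.

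Against Naive mice, 10 of 22 members were higher and 0 lower, where 2.03% of all genes were higher and 2.99% called in either direction. They were the 7 named against Sham mice with H2-Ab1 (log2 fold change 2.37, edgeR adjusted p = 0.0196), H2-Eb1 (1.81, adjusted p = 0.034) and H2-DMb1 (1.39, adjusted p = 0.0475). The count was 3 without Naive mouse 8 and 4 without Naive mouse 9, where 0.57% and 0.705% of all genes were higher. Of the markers, 5 of 7 for border-associated macrophages, 5 of 6 for meningeal fibroblasts and 2 of 7 for the choroid plexus were also higher than in Naive mice, as were 3, 2 and 0 against Sham mice. Both comparisons use the same SAH mice.

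Between Sham and Naive mice 0 of 22 members passed by edgeR or by DESeq2, and 0 had an unadjusted p under 0.05, where 0.00661% of all genes tested passed. The log2 fold change, Sham minus Naive, was 0.045 for H2-K1, 0.0068 for H2-D1, 0.044 for B2m and 0.069 for H2-T23. For the class II side it was 0.68 for H2-Aa, 0.61 for H2-Ab1, 0.52 for H2-Eb1 and 0.24 for Cd74, and the class II chains summed to 1.53 to 2.90 CPM in Sham mice and 0.925 to 1.82 CPM in Naive mice. A p that misses the threshold with 3 mice in each group does not show that the groups are alike.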

How the data were processed

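What the authors deposited is a table of raw counts for each mouse, in read pairs summed by gene name, with no normalization. The authors aligned 50-base stranded pairs to mm9 with STAR, joined each mouse's lanes, and used featureCounts 1.6.2 to count them (reverse-stranded, pairs, UCSC exons by gene name). Pairs at several places or on more than 1 gene name were left out, which removes reads of near-identical H2 genes. The members and gene lists were chosen with earlier results of these data known. Groups came from the sample titles.

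Counts were fitted for the whole table with edgeR 4.0.16 (R 4.3.3, TMM, filterByExpr with a minimum count of 10 and a total of 15, quasi-likelihood test) and p-values were adjusted by Benjamini-Hochberg over all genes tested, with a threshold of 0.10. SE is the log2 fold change divided by the root of F, and intervals are at 95%. SAH was set against pooled control mice; the 3 groups were fitted together for the pairwise comparisons. DESeq2 1.42.0, other scalings, filters and thresholds, and leaving out each mouse were tried. The step was tested on simulated counts. No libraries agreed within sampling noise. Members with at least 10 counts in some mouse could be named with values. Exon windows were searched on the 22 main mm9 sequences; 86.7% of all exons of the table, and 81.8% of the members' 462, were found with both ends in the annotation used. Promoters came from RefSeq, and 15 members without an entry were left out: Ciita, Nlrc5, Cd74, H2-Ab1, H2-K2, H2-T24, H2-T10, H2-T9, H2-L, H2-Q1, H2-Q5, H2-Q8, H2-Q9, H2-Ea-ps and H2-Bl. Some genes of the comparison lists are not reported here.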

Additional observations from a re-analysis of the deposited data

Results flagged for a closer look

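A single mouse lay apart from the rest of its group in 5 of 40 sets of member values examined (4 SAH mice or 6 control mice for each tested gene); chance alone flags about 1 in 20 such sets. SAH mouse 3 was low for Cd74, at 2.07 CPM against 5.39 to 5.90 CPM in the other SAH mice, and for H2-Ab1, at 1.16 CPM against 2.04 to 2.21 CPM. SAH mouse 2 was low for H2-Ob, at 0.368 CPM against 0.599 to 0.628 CPM. Among control mice, Sham mouse 7 was high for B2m, at 83.5 CPM against 74.2 to 76.8 CPM, and Sham mouse 5 was high for H2-M5, at 0.866 CPM against 0.36 to 0.489 CPM.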

How the results depend on the processing

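The count of 13 members higher in SAH than in control mice became 14 by DESeq2, 9 to 14 when 1 mouse was left out, 10 without the 3 mice of highest choroid plexus markers (chosen after seeing the data), 8 at an adjusted p under 0.01 and 0 with the 3 Sham mice alone as control. Over all genes tested, the share higher was 3.13%, and it became 4.22% by DESeq2 and 1.48% to 4.55% when 1 mouse was left out. It was 1.7%, 0.667% and 0.0797% in the last 3 of these settings. The count of 7 against Sham mice became 0 to 9 when 1 mouse was left out, 0 with the compared mice alone, 2 at an adjusted p under 0.05 and 0 under 0.01. The share of all genes higher was 0.529%, and in these settings 0.0393% to 1.1%, 0.0797%, 0.271% and 0.0132%. The count of 10 against Naive mice became 3 to 12 when 1 mouse was left out, 6 with at least 10 counts required in every mouse and 2 at an adjusted p under 0.01. Here the share of all genes higher was 2.03%, and in these settings 0.57% to 2.94%, 1.78% and 0.39%. Fewer mice and fewer genes enter some of these fits; otherwise the cause was not tested. No member was lower in SAH mice under any of these settings.

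H2-K1, H2-D1, H2-Q4, H2-T23, B2m, H2-Aa, H2-Ab1, H2-Eb1 and Cd74 passed against control mice in all 10 fits that left out 1 mouse; H2-T24, Nlrc5, H2-K2 and H2-DMb1 did not. Without SAH mouse 4 these 4 had log2 fold changes of 0.65, 0.71, 0.93 and 0.98 (edgeR adjusted p = 0.238, 0.231, 0.169 and 0.149). H2-M3 passed by DESeq2 (adjusted p = 0.0716) and in 5 other settings. Direction changed for genes near 0: H2-Ke6 was at 0.0006 by DESeq2, 0.0007 with its size factors, 0.0037 with library size alone, 0.0009 with 10 counts in every mouse, 0.04 with Naive mice alone and −0.034 to 0.024 in fits that left out 1 mouse, and H2-Oa was at −0.12 (without SAH mouse 4) to 0.44 when 1 mouse was left out and −0.05 without the 3 mice of highest choroid plexus markers. The class medians moved by less than the spread between replicates with library size alone, with no filter and in the 10 fits that left out 1 mouse, the 12 alternatives run for them. Depth limits the class II genes, which had under 3 CPM in control mice, and those of the 27 members not tested that had exon bases of their own; 6 of the 27 had under 100 such bases, which depth does not mend.

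No paired analysis was possible because no animal number is shared between groups.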
